A study of Mus musculus with 6 samples.

Results

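Neurotrophic and axon guidance genes were followed in the dental pulp of mice with a Ring1 deletion and of control mice. The set holds 9 genes: the ligands Bdnf, Ntf3, Gdnf and Nrtn, the receptors Ngfr, Ntrk2, Gfra1 and Ret, and the guidance cue Sema3a. Every probe set that the platform annotation gives to 1 of these symbols was taken, which was 23 of the 45101 probe sets and covered 8 of the 9 genes. The annotation used names no probe set for Ntf3, which was not analysed here. Of the 23 probe sets, 8 were called Present on at least 3 of the 6 arrays, and 5 genes, Gfra1, Ret, Ngfr, Ntrk2 and Sema3a, could thereby be tested among 12250 genes.

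The samples were 3 Ring1 deletion and 3 control arrays, each labelled as a biological replicate. Deletion mice, labelled Ring1a-/-;Ring1b cko/cko ;CreERT2, had 4-hydroxytamoxifen at 40 mg/kg on postnatal days 9 and 13. Control mice, labelled Ring1a-/-;Ring1b flox/flox ;CreERT2, had corn oil on the same days, and pulp of both groups was taken on day 17. All mice therefore lacked Ring1a, and drug and deletion differed together between the groups, so their effects cannot be told apart. The promoter that drives the tamoxifen-inducible Cre recombinase, and whether animals were pooled, are not given in the sources used here. The p-values below reflect only how much these 6 samples vary.

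Neurotrophins are secreted proteins that keep neurons alive and draw their axons into target tissue. Bdnf acts through the tyrosine kinase receptor Ntrk2 (TrkB), and Ngfr is the receptor shared by all neurotrophins. Gdnf and neurturin (Nrtn) bind co-receptors of the Gfra family anchored in the cell membrane, Gdnf chiefly Gfra1 and neurturin chiefly Gfra2, and these pass the signal to the tyrosine kinase Ret. Sema3a is a secreted repellent read by axons through neuropilin and plexin receptors. In the tooth such factors are known from the mesenchyme that becomes the pulp, where they take part in the timing and path of sensory innervation.

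The 8 genes fell into those called Present on enough arrays to be tested and those that were not. Gfra1 was the member that rose in the deletion arrays, 2.22-fold, and Sema3a was 1.61-fold higher without passing the test. Ret and Ntrk2 differed by 1.08-fold and 1.09-fold, and Ngfr stood at 60.7% of the control level, none of them past the threshold. The ligands Bdnf, Gdnf and Nrtn were called Present on too few arrays to be tested. Of all 12250 genes, 2.65% changed at an adjusted p under 0.05 (1.89% higher and 0.759% lower in deletion), and 1 of the 5 tested members did. The deletion and control arrays did not overlap in 2 of the 5, Gfra1 and Sema3a, with deletion higher in both, while 12.2% of all genes showed that order and 20.8% were separated in either direction.

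Promoter sequence of 3 members is shown because the recruitment of Polycomb complexes in mammals is known to favour promoters rich in CG dinucleotides, and Ring1b is a catalytic subunit of such a complex. The 3 are the member that rose, the member that was higher short of the threshold, and the member with the lowest ratio to control. Each is the 250 bases before an annotated transcript start of RefSeq on GRCm38.p6, printed in the direction of transcription with every CG in capitals. A RefSeq window was found for 8 of the 9 members, 16 windows in all. The Gfra1 window lies at chr19:58455399-58455648, minus strand, the Sema3a window at chr5:13396534-13396783, plus strand and the Ngfr window at chr11:95587699-95587948, minus strand.
Gfra1: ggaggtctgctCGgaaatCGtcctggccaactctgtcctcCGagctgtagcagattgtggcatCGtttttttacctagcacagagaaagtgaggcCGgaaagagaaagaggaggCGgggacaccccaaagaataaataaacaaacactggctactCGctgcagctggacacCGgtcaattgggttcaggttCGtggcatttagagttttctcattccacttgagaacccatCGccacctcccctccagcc
Sema3a: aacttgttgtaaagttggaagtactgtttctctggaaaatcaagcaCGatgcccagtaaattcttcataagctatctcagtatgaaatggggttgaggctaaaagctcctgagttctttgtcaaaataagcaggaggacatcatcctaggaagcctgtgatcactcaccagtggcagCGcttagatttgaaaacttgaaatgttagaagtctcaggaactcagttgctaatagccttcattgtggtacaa
Ngfr: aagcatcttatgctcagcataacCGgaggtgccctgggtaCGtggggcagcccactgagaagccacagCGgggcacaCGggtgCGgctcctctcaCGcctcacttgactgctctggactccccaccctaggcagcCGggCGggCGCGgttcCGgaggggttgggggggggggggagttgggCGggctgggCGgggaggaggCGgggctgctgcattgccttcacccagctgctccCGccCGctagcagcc
The motif searched was CG, which reads the same on both strands. Gfra1 held 10 CG dinucleotides, a count that 37.8% of 32851 windows of this length reach or exceed. Sema3a held 2, reached by 81.2% of windows, and Ngfr held 16, reached by 25.4%, while the median window held 6. Of the member windows not printed, those of Ntrk2 and Nrtn held the most, 19 each, reached by 19.7% of windows. A Bdnf window held the fewest, 1, reached by 92.1%. The 3 printed windows were picked by the expression values of their genes, and whether CG content bears on those values was not tested. Gene starts can differ between tissues, and no protein binding was measured in these samples.

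Gfra1, the co-receptor that captures Gdnf, was measured well by 1 of its 3 probe sets, 1439015_at, which was called Present on all 6 arrays. Its signal was 1509, 956 and 1001 on the deletion arrays of replicates 1, 2 and 3, against 563, 453 and 516 on the control arrays. Every deletion array lay above every control array, and deletion replicate 1 was the highest. The mean log2 signal was 10.14 ± 0.36 in deletion and 8.99 ± 0.16 in control (SD, n = 3 each), a difference of 1.15 ± 0.22 (SE) with a 95% interval of 0.66 to 1.65 on the log2 scale (limma adjusted p = 0.0297). An exact two-sided permutation test over the 6 arrays gave p = 0.1, the smallest that 3 arrays against 3 allow.

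The size of the Gfra1 difference varied less than its call. Between arrays of the same replicate number the log2 differences were 1.42, 1.08 and 0.95. With the replicate number as a block the limma adjusted p was 0.00187. When 1 array was left out the log2 difference stayed between 0.94 and 1.27, and the call held in 1 of the 6 cases, without control replicate 1 (limma adjusted p = 0.0432). Dropping control replicate 2 gave a limma adjusted p of 0.147 and dropping control replicate 3 gave 0.0853. Dropping deletion replicates 1, 2 and 3 in turn gave 0.0546, 0.0516 and 0.0709, and a variance with no intensity trend gave 0.0564.

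The other Gfra1 probe sets gave no common direction. 1450440_at was Present on 2 deletion arrays and no control array, with signals of 55.3, 68.4 and 99.5 in deletion and 15.5, 54.8 and 56.3 in control. 1421973_at was Present on 1 deletion array and no control array, with 96.5, 41.5 and 7.26 in deletion and 70.0, 74.6 and 72.9 in control. The groups overlapped in both, and neither reached the detection minimum.

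**Figure D1:**
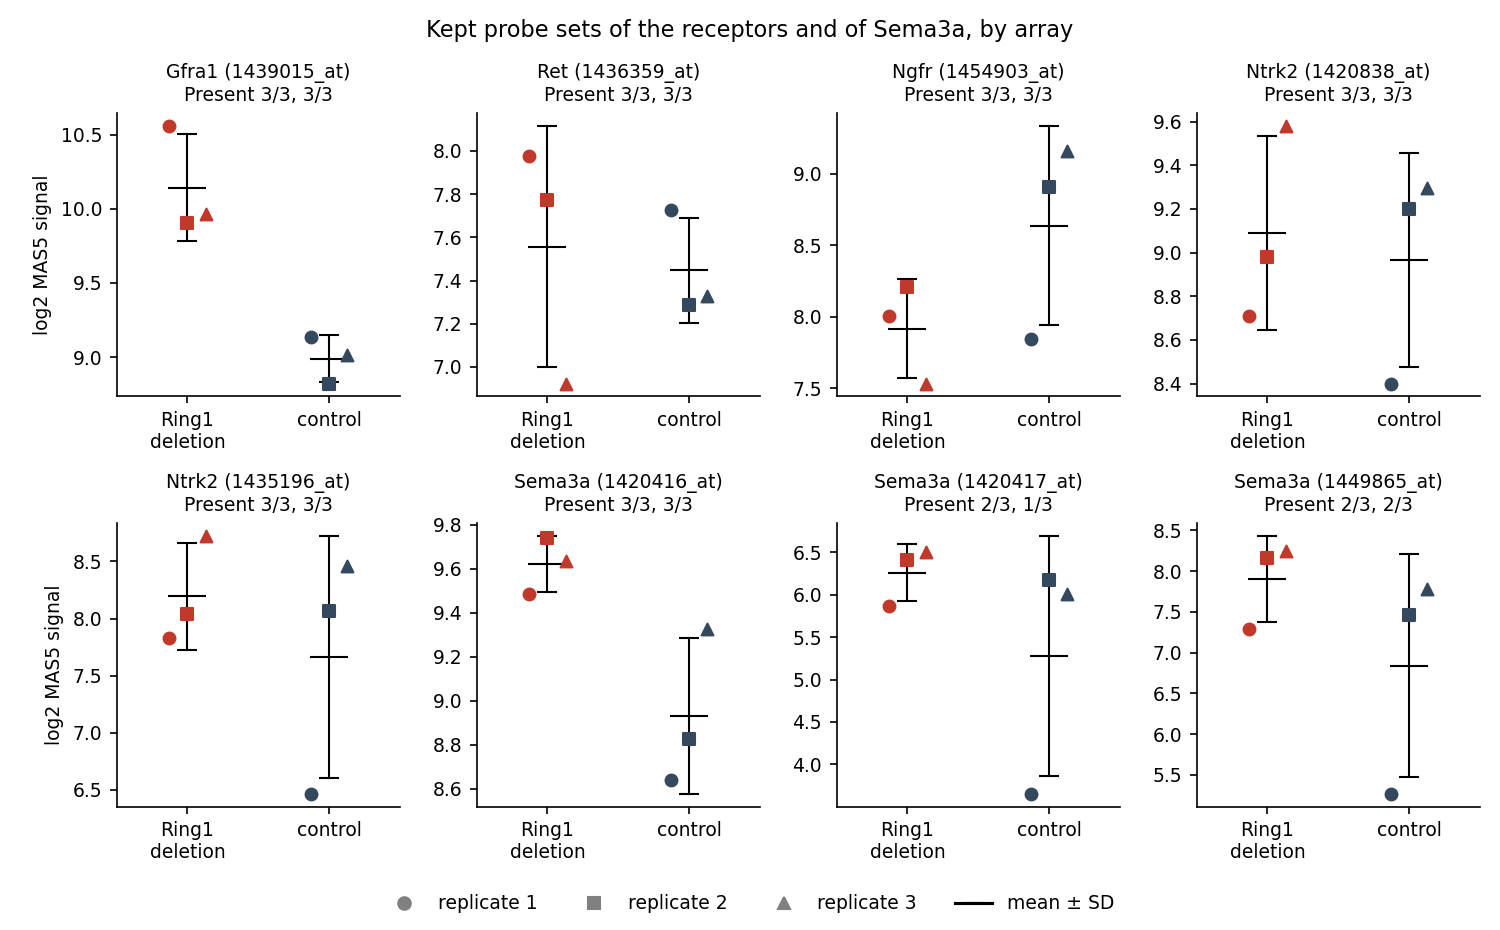
Log2 MAS5 signal per array (vertical axis, a different range in each panel) for the 8 kept probe sets of Gfra1, Ret, Ngfr, Ntrk2 and Sema3a, with Ring1 deletion on the left and control on the right. Points are arrays with the shape giving the replicate number, bars are mean ± SD (n = 3), and each heading gives the Present calls in deletion and then control; Gfra1 and the first Sema3a probe set are the panels in which the groups do not overlap.

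Ret, the kinase that Gfra1 engages, did not pass the test. Its probe set 1436359_at, Present on all 6 arrays, read 252, 219 and 121 in deletion and 212, 156 and 161 in control. The deletion arrays held both the highest and the lowest value, so the groups overlapped. The mean log2 signal was 7.56 ± 0.56 in deletion and 7.45 ± 0.24 in control (SD, n = 3 each), a difference of 0.11 with a 95% interval of -0.61 to 0.83 (limma adjusted p = 0.928). The interval includes a change of either sign, and the sign turned with quantile normalization (-0.07) and without deletion replicate 1 (-0.10). The other Ret probe set, 1421359_at, had no Present call.

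The 2 ligands of the set that signal through Ret were at or near the limit of detection. Gdnf had no Present call on any array, with signals of 18.4, 38.3 and 6.44 in deletion and 11.0, 41.8 and 34.1 in control. Nrtn was called Present on 2 deletion arrays and Marginal on the remaining one, and it was Marginal on 1 control array and Present on none. Its signal was 247, 244 and 352 in deletion and 216, 260 and 231 in control. The Nrtn groups overlapped, and no fold is given for either ligand.

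**Figure D2:**
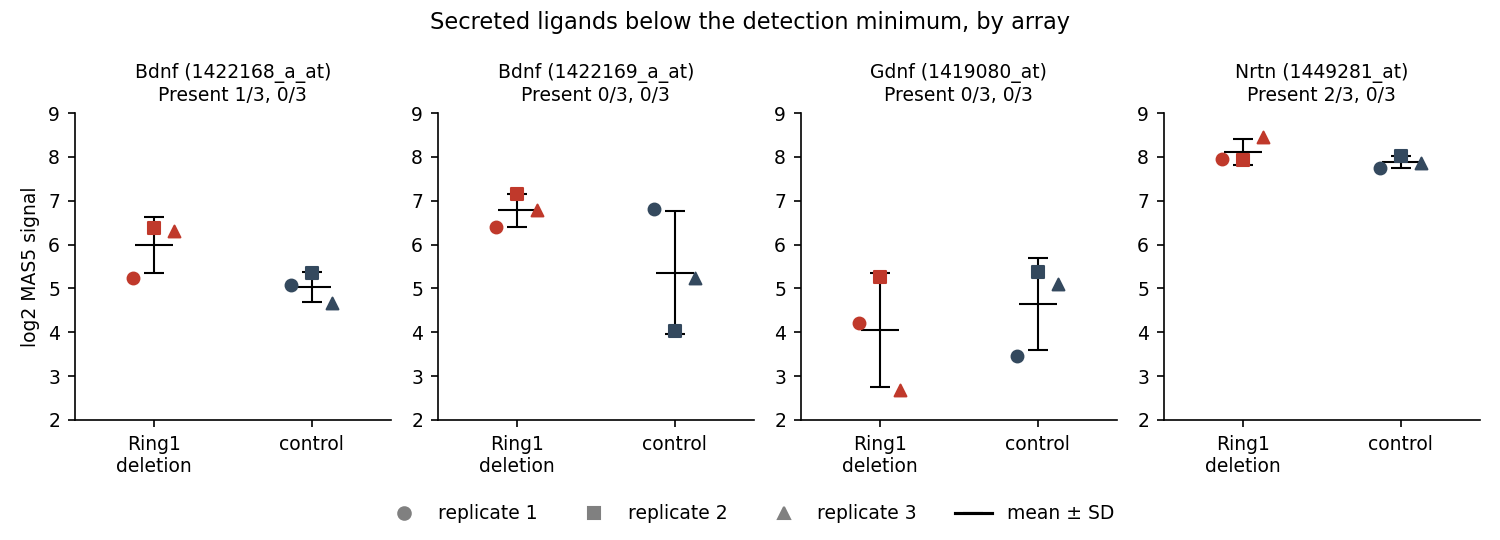
Log2 MAS5 signal per array (vertical axis) for the probe sets of Bdnf, Gdnf and Nrtn, none of which was called Present on 3 or more arrays, with Ring1 deletion left of control. Points are arrays, bars are mean ± SD (n = 3), headings give Present calls in deletion and then control, and the groups overlap in all 4 panels.

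Of the GDNF family partners, none of 7 tested genes changed in limma after adjustment, and 3 had an unadjusted p under 0.05, as did 15.2% of all genes. The mean was higher in deletion for 5 and lower for 2, at a median log2 difference of 0.24, where that of all genes tested was 0.02. Gas1, a membrane protein related to the Gfra co-receptors, had signals of 9290, 9227 and 8373 in deletion and 10134, 9994 and 5424 in control (log2 difference 0.13 ± 0.24, SE; limma adjusted p = 0.88). Gfra2, the co-receptor of neurturin, had 2411, 1377 and 1137 in deletion and 1403, 676 and 491 in control. Each Gfra2 deletion array was higher than the control array of its number, but the groups overlapped (log2 difference 1.01 ± 0.40, SE; limma adjusted p = 0.262; blocked by replicate, 0.00257). Ncam1, an adhesion molecule that can carry Gdnf signals without Ret, differed by 0.48 ± 0.31 on the log2 scale (SE; limma adjusted p = 0.548). Gfra4 differed by 0.83 ± 0.33 with groups apart (SE; limma adjusted p = 0.264). Etv4 and Etv5, the 2 with lower means, differed by -0.70 ± 0.54 and -0.62 ± 0.24 with overlapping groups (SE; limma adjusted p = 0.632 and 0.263). Gfra2, Ncam1, Gfra4, Etv4 and Etv5 were chosen after their values were seen.

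Ngfr, the shared neurotrophin receptor, was read by 1454903_at, Present on all 6 arrays. Its signal was 257, 296 and 185 in deletion and 230, 480 and 572 in control. Control replicates 2 and 3 were the highest arrays, while control replicate 1 lay below 2 of the 3 deletion arrays. The mean log2 signal was 7.92 ± 0.35 in deletion and 8.64 ± 0.70 in control (SD, n = 3 each), a difference of -0.72 with a 95% interval of -1.51 to 0.07 (limma adjusted p = 0.385; blocked by replicate, 0.171). Between arrays of the same number the log2 differences were 0.16, -0.70 and -1.63, so the replicate 1 arrays went against the others. Without both replicate 1 arrays the log2 difference was -1.16 (limma adjusted p = 0.0611). It was -0.97 with array quality weights, which brought the limma adjusted p to 0.0456. The 2 other Ngfr probe sets had no Present call.

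Ngfr is also carried by immature and non-myelinating Schwann cells, and markers of Schwann cells in general were therefore read beside it. The list includes myelin genes such as Mbp, so it does not single out the cells that carry Ngfr. Of 14 Schwann cell genes 11 are named on the array, 4 were tested (Mbp, Erbb3, S100b and Ncmap) and none changed in limma (1 at an unadjusted p under 0.05, against 15.2% of all genes), with a median log2 difference of -0.13. Mag, Foxd3, Cdh19, Gfap and Pmp2 had no Present call. The summed signal of the 4 ranged from 1634 to 2703 in deletion and from 2563 to 3440 in control, so the group ranges overlapped. The part of Schwann cells in the Ngfr values was not tested. In bulk tissue fewer cells of a type and less RNA per cell cannot be told apart.

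Ntrk2, the receptor of Bdnf, had 8 probe sets, of which 2 were kept and 5 had no Present call. 1420838_at read 419, 504 and 765 in deletion and 338, 589 and 628 in control, and 1435196_at read 227, 262 and 422 in deletion and 88.3, 267 and 353 in control. The deletion and control values overlapped in both probe sets. The representative 1420838_at differed by 0.12 on the log2 scale with a 95% interval of -0.56 to 0.81 (limma adjusted p = 0.913). The interval leaves room for a difference of either sign, and the sign turned without control replicate 1 (-0.16) or without deletion replicate 3 (-0.12).

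Bdnf, the ligand of Ntrk2, was called Present by 1422168_a_at on 1 deletion array and on no control array. That probe set read 37.9, 83.5 and 79.8 in deletion and 34.0, 40.5 and 25.5 in control. Deletion replicates 2 and 3 were the highest arrays, and deletion replicate 1 lay within the control range. The second Bdnf probe set, 1422169_a_at, had no Present call, with 84.6, 143 and 110 in deletion and 113, 16.3 and 37.6 in control. Signals of undetected probe sets scatter widely in MAS5, and no fold is given.

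**Figure D3:**
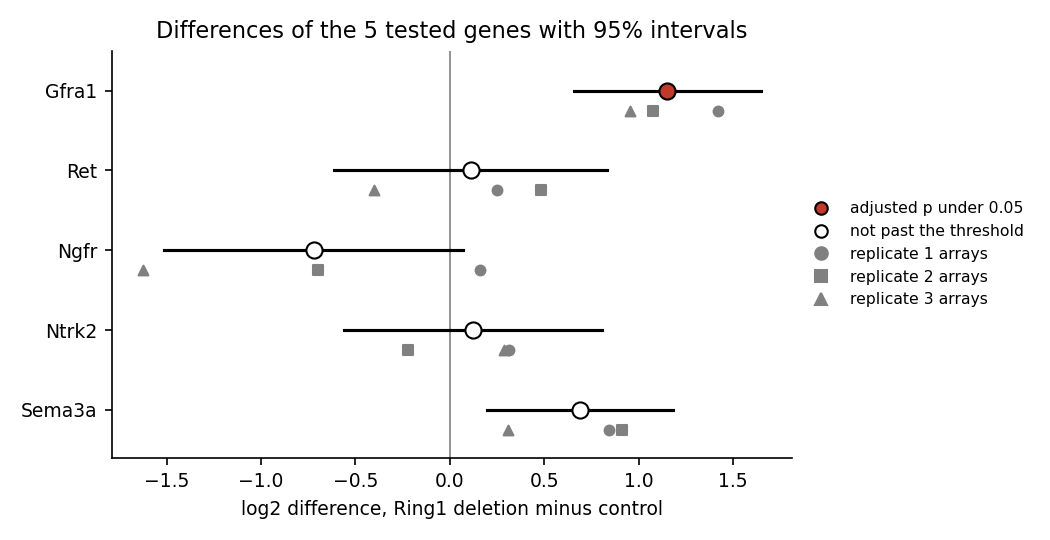
Log2 difference, Ring1 deletion minus control (horizontal axis), for the representative probe sets of Gfra1, Ret, Ngfr, Ntrk2 and Sema3a. Circles are limma estimates with 95% intervals, filled where the adjusted p is under 0.05, and small grey marks are the differences between arrays of the same replicate number; all 3 lie above 0 for Gfra1 and Sema3a.

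Of the neurotrophin partners, none of 10 tested genes changed in limma after adjustment, and 2 had an unadjusted p under 0.05, where 15.2% of all genes had. The mean was higher in deletion for 7 and lower for 3, at a median log2 difference of 0.06. Pcsk5, a convertase that can cleave proneurotrophins, had signals of 17552, 12341 and 13065 in deletion and 19841, 13887 and 10041 in control (log2 difference 0.01 ± 0.26, SE; limma adjusted p = 0.993). Ntf5, the second ligand of Ntrk2, was Present on all 6 arrays with 208, 381 and 528 in deletion and 272, 360 and 628 in control. Its groups overlapped throughout (log2 difference -0.19 ± 0.39, SE; limma adjusted p = 0.897). With the replicate block 2 of the 10 rose, where 6.44% of all genes did. They were Furin, another convertase, and Sorcs2, a co-receptor of Ngfr, with log2 differences of 0.52 and 0.81 (limma adjusted p = 0.157 and 0.244 without the block, 0.0452 and 0.0411 with it). Ntf5, Furin and Sorcs2 were chosen after their values were seen.

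Sema3a, the secreted repellent, was the member whose 3 probe sets all passed the detection minimum, and all 3 had higher means in deletion. 1420416_at, Present on all 6 arrays, read 717, 856 and 795 in deletion and 400 (399.5), 454 and 641 in control. The lowest deletion array lay above the highest control array. The mean log2 signal was 9.62 ± 0.13 in deletion and 8.93 ± 0.35 in control (SD, n = 3 each), a difference of 0.69 ± 0.22 (SE) with a 95% interval of 0.20 to 1.18. This did not pass after adjustment over all genes (limma adjusted p = 0.152), and it passed with the replicate block (0.035) and with array quality weights (0.0329). Between arrays of the same number the log2 differences were 0.84, 0.91 and 0.31, higher in deletion in 3 of 3.

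The dimmer Sema3a probe sets overlapped between the groups. 1449865_at read 157, 287 and 304 in deletion and 38.5, 176 and 220 in control, with a log2 difference of 1.07 ± 0.60 (SE). 1420417_at read 58.6, 85.4 and 90.5 in deletion and 12.6, 72.3 and 64.5 in control, with a difference of 0.98 ± 0.65 (SE). In both, control replicate 1 was far below the other arrays. That array was the lowest of the 6 in 5 of the 8 kept member probe sets, those of Ntrk2 and Sema3a, and it held the lowest value of 20.1% of all genes tested. Without it the log2 difference of 1420416_at was 0.55 (limma adjusted p = 0.289).

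Of 15 tested class 3 semaphorins, receptors and effectors, Nrp2 alone rose and no gene fell, where 1.89% of all genes rose and 0.759% fell. In limma 4 of the 15 had an unadjusted p under 0.05, where 15.2% of all genes had. Deletion lay fully above control in 4 and fully below in 1, where 12.2% and 8.64% of all genes did. The mean was higher in deletion for 10 and lower for 5, at a median log2 difference of 0.22. Nrp2, a neuropilin that binds mainly Sema3c and Sema3f, had signals of 1229, 1340 and 1866 in deletion and 661, 487 and 647 in control. All deletion arrays lay above all control arrays, and the log2 difference was 1.29 ± 0.22 (SE), or 2.45-fold (limma adjusted p = 0.0182). All 4 kept Nrp2 probe sets separated the groups in this direction, with log2 differences of 0.91 to 1.29. The call was lost on dropping control replicate 2 (limma adjusted p = 0.0985) or deletion replicate 3 (0.0674).

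Nrp1, the neuropilin that binds Sema3a itself, was not separated. It read 2851, 1659 and 1573 in deletion and 1579, 1935 and 1547 in control (log2 difference 0.22 ± 0.24, SE; limma adjusted p = 0.764). Plxna2, a plexin that transmits the signal, read 2340, 1499 and 1949 in deletion and 1171, 1104 and 801 in control. Its groups did not overlap and differed by 0.91 ± 0.22 on the log2 scale (SE; limma adjusted p = 0.0741; blocked by replicate, 0.00913). Sema3d and Sema3e, further secreted semaphorins, differed by -0.87 ± 0.26 and -0.82 ± 0.44 on the log2 scale (SE; limma adjusted p = 0.125 and 0.447; blocked by replicate, 0.022 and 0.00936). Blocking by replicate made it 2 of the 15 that rose and 2 that fell, where 6.44% and 4.19% of all genes did. Dpysl2, an effector of Sema3a in the growth cone, differed by -0.28 ± 0.20 on the log2 scale (SE; limma adjusted p = 0.592). Nrp1, Plxna2, Sema3d and Sema3e were chosen after their values were seen.

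The other guidance families held 1 changed gene. Of 17 tested ephrins and Eph receptors, 6 had an unadjusted limma p under 0.05, where 15.2% of all genes had. Deletion lay fully above control in 5 and fully below in 1, where 12.2% and 8.64% of all genes did. Efna3, a membrane-anchored ephrin that signals to Eph receptors, was the only one of the 17 past the threshold, which 2.65% of all genes passed. It was Present on all 3 deletion and on 2 control arrays and read 290, 399 and 462 in deletion and 155, 104 and 108 in control. The groups were apart by 1.65 ± 0.28 on the log2 scale (SE), or 3.13-fold (limma adjusted p = 0.0178). That call was lost on dropping control replicate 2 (limma adjusted p = 0.0951), control replicate 3 (0.0553), deletion replicate 2 (0.0689) or deletion replicate 3 (0.0752). A second Efna3 probe set, Present on all 6 arrays, differed by 1.44 in the same direction with overlapping groups (limma adjusted p = 0.145 among genes Present on all 6 arrays). Efnb2, another ephrin, differed by 0.23 ± 0.16 on the log2 scale (SE; limma adjusted p = 0.569).

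No gene passed among 13 membrane semaphorins and plexins, 17 genes of the netrin, Slit and RGM families or 9 other trophic factors. In limma 2, 4 and 3 of these had an unadjusted p under 0.05, a level that 15.2% of all genes reached, and the median log2 differences were 0.13, 0.50 and 0.16. Sema5a, a membrane semaphorin, had a log2 difference of 0.53 ± 0.29, the netrin receptor Neo1 0.29 ± 0.25, and Ptn, the growth factor pleiotrophin, -0.05 ± 0.20 (SE; limma adjusted p = 0.458, 0.68 and 0.954). Unc5d, a netrin receptor chosen after its values were seen, read 197, 206 and 139 in deletion and 97.7, 39.4 and 5.36 in control. It was Present on all 3 deletion arrays and on 1 control array, so the deletion arrays alone met the detection minimum for it. The Unc5d groups were apart (limma adjusted p = 0.168; blocked by replicate, 0.0184), but for that reason its direction is no support for a change. The counts and the median of the netrin, Slit and RGM list include Unc5d. Over all 7 lists 2 of 88 tested genes rose and none fell, or 2.27%, close to the 2.65% of all genes. Of the 88, 18 lay fully above and 5 fully below control, where 12.2% and 8.64% of all genes did. The mean was higher in deletion for 63 and lower for 25, against 6432 and 5818 of all 12250 genes. With the replicate block 12 of the 88 rose and 6 fell, where 6.44% and 4.19% of all genes did. By list that block gave 0 risen and 2 fallen membrane semaphorins and plexins, 2 and 0 netrin, Slit and RGM genes, 4 and 1 ephrins and Eph receptors, 1 and 1 other trophic factors, and 1 and 0 GDNF family partners.

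**Figure D4:**
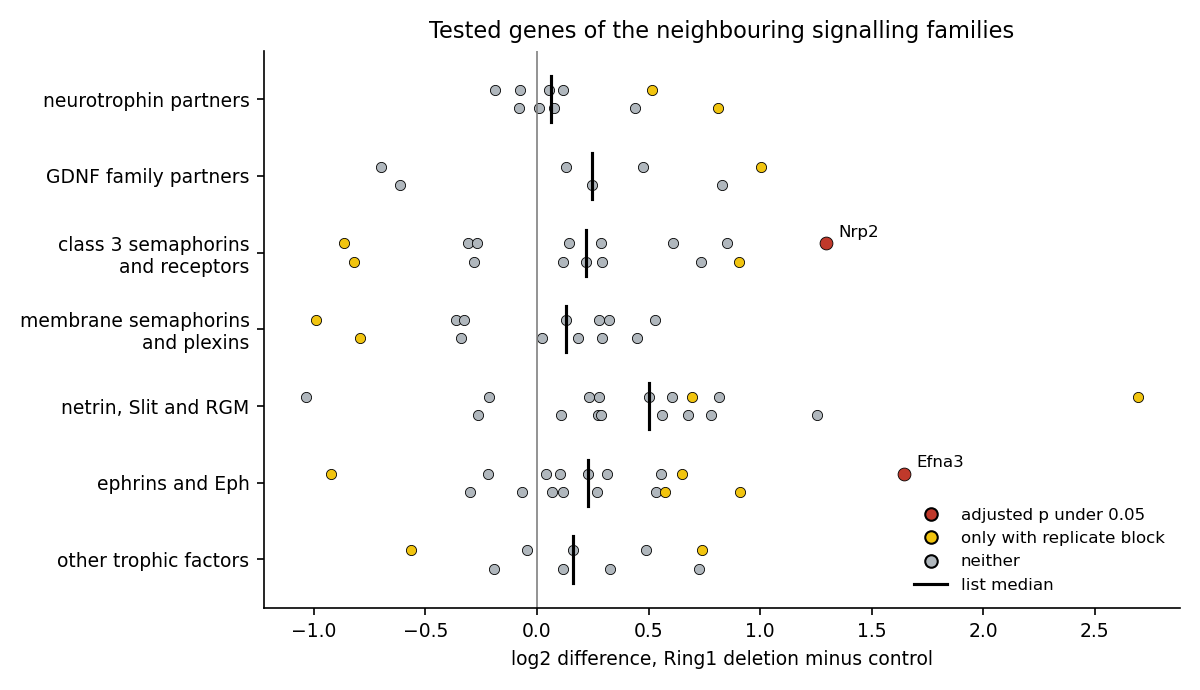
Log2 difference, Ring1 deletion minus control (horizontal axis), of the 88 tested genes in 7 lists of related signalling genes (rows). Each point is a gene, red where its adjusted p was under 0.05 and yellow where it was so only with the replicate block, and black bars are list medians; Nrp2 and Efna3 are the 2 red points.

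The tissue and the arrays set limits on these values. Rnf2, the gene for Ring1b, read 3165, 3550 and 2831 in deletion and 2693, 2440 and 2233 in control at its representative probe set (log2 difference 0.37 ± 0.17, SE; limma adjusted p = 0.33). Every deletion array lay above every control array there, an order that 12.2% of all genes showed. A second Rnf2 probe set Present on all 6 arrays also had a higher mean in deletion, by 0.53 on the log2 scale. No fall of this transcript was thus seen in the arrays labelled Ring1 deletion. Whether the probe sets cover the excised exons is unknown here. Ring1 had no Present call. Odontoblast markers summed to between 124880 and 146490 in deletion and between 123100 and 158500 in control, and markers of pulp mesenchyme to between 167230 and 208860 in deletion and between 165700 and 202890 in control. Dental epithelium markers, of which 14 were summed, ranged from 55485 to 208450 in deletion and from 129020 to 177730 in control, with deletion replicate 1 lowest, the array on which Gfra1 was highest. Markers of pericytes, endothelium and macrophages had their highest sums on that same array: 9763 to 13510, 3722 to 4738 and 15574 to 24367 in deletion, and 9791 to 11439, 2726 to 4104 and 13129 to 17788 in control. Of the 14 epithelial markers Shh alone changed, and it fell (log2 difference -2.12 ± 0.31, SE; limma adjusted p = 0.00931). Of the 10 mesenchyme markers Prrx1 alone changed, and it rose (1.15 ± 0.18, SE; limma adjusted p = 0.0114). At this threshold 1.89% of all genes rose and 0.759% fell. With the replicate block, where 6.44% of all genes rose and 4.19% fell, 1 of the 14 epithelial markers rose and 4 fell. Of the 10 mesenchyme markers 4 then rose and none fell, and 2 of 10 macrophage markers and 1 of 9 endothelial markers rose. That block also gave 1 risen and 1 fallen gene each among the 8 odontoblast and the 7 pericyte markers. The summed cell division markers were below control on every deletion array, 3650 to 7297 in deletion and 10337 to 18228 in control. Of these 9 markers 6 fell without the block, where 0.759% of all genes did. The part of these differences in the values of the 5 tested members was not tested. Between 53.8% and 57.9% of probe sets were called Present per array, and the number of arrays limits the precision.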

How the data were processed

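Total RNA of mouse dental pulp was amplified and labelled with biotin, per the labels' protocols, and hybridised to 6 arrays. The deposited intensities, 1 linear value per probe set, were made by the authors with MAS5, per the submitters' processing notes. Their 2% trimmed mean was 500 on every array. MAS5 detection calls came from the authors' deposited workbook, whose columns give the group but no replicate, and Present calls were therefore summed over each group. A further 12 workbook columns were not used. Software version and genome build are not given in the sources used here.

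Groups and replicate numbers came from the sample titles. Symbols of probe sets came from the platform annotation (34958 with 1 symbol, 932 with several, 9211 with none), and Entrez identifiers of 34754 matched the RefSeq table. Of the probe sets with 1 symbol, those called Present at least 3 times among the 6 arrays were kept (21614), and the kept one with the highest mean represented its gene. Values below 1 were raised to 1 before the log2 transform. Deletion was set against control in limma 3.58.1 (R 4.3.3) by lmFit and a two-sided eBayes test whose prior variance follows intensity. The Benjamini-Hochberg adjustment ran over 12250 genes at a threshold of 0.05. The fit was tested on simulated data.

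The titles give both groups replicate numbers 1 to 3. After subtraction of group means, control and deletion arrays of one number correlated at 0.485 (replicate 1), 0.189 (replicate 2) and 0.286 (replicate 3). All were over 0.1, the limit set for taking the numbers to pair the arrays. Control replicate 3, however, correlated with deletion replicate 2 at 0.213, more than control replicate 2 did. Subtracting group means also ties the 3 arrays of a group together, so the values for replicates 2 and 3 follow partly from that of replicate 1. They cannot by themselves show a pairing, and results with the block are an alternative that depends on it. Values with the replicate block are given where they change a call or a count by over 1.5-fold.

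Members, lists and alternatives were chosen with earlier results of these data known. Named genes were all members, in each list up to 4 genes past the threshold and the one with the highest mean signal, Rnf2 and Ring1, and for each member Present on all arrays the 3 genes most correlated with it. Alternatives covered normalization, low signals, the detection filter, the probe set rule, the variance model, the replicate block and left-out arrays.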

Additional observations from a re-analysis of the deposited data

How the results depend on the processing

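Gfra1 kept its direction under all 18 alternatives (log2 difference 0.94 to 1.27) and its call under 12 of them. Sema3a was higher in deletion under all 18 (0.55 to 0.91) and passed under 2, the replicate block and array quality weights, and Ngfr was lower under all 18 (-1.16 to -0.46) and passed under 1, array quality weights. Ret turned sign with quantile normalization (-0.073) and, when 1 array was left out, ranged from -0.10 to 0.43, while Ntrk2 then ranged from -0.16 to 0.31. The count of members that changed was 1; a variance with no intensity trend gave 0, the replicate block 2, array quality weights 3 and leaving out 1 array 0 to 1. It was 0 without control replicate 2, control replicate 3 or any 1 of the 3 deletion replicates. Of the 88 related genes 2 changed, against 18 with the replicate block, 13 with array quality weights, 5 without both arrays of replicate 1, 1 among genes Present on all 6 arrays and 0 to 2 when 1 array was left out; it was 0 without control replicate 2 or deletion replicate 3 and 1 without control replicate 3 or deletion replicate 2. Over all genes 325 changed, against 1302 with the replicate block, 1106 with array quality weights, 500 without both arrays of replicate 1, 204 among genes Present on all 6 arrays and 94 to 300 when 1 array was left out, the lowest without control replicate 2. The cause of these differences in count was not tested. With no detection filter the 3 ligands below the detection minimum entered the fit without passing (limma adjusted p = 0.429 for Bdnf, 0.859 for Gdnf and 0.8 for Nrtn). Few or no Present calls limit what can be said of these ligands.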

Other observations

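Transcripts carried by neurons were read as a further view of innervation. Of 14 neuronal genes 13 are named on the array and 6 were tested, of which Uchl1 alone changed, where 2.65% of all genes did. In limma 3 of the 6 had an unadjusted p under 0.05, where 15.2% of all genes had. Uchl1 rose. The mean was higher in deletion for 4 and lower for 2, Tac1 and Th, at a median log2 difference of 0.42. Deletion lay fully above control in 2 and fully below in 1, where 12.2% and 8.64% of all genes did. Prph, Nefh, Snap25 and Scn9a had no Present call. Uchl1, a ubiquitin hydrolase abundant in neurons and used to stain pulp nerves, read 632, 536 and 721 in deletion and 350 (349.8), 253 and 208 in control (log2 difference 1.24 ± 0.24, SE; limma adjusted p = 0.0322). Tac1, the precursor of the sensory neuropeptide substance P, had signals of 248, 324 and 81.0 in deletion and 949, 544 and 334 in control. Its groups did not overlap (log2 difference -1.58 ± 0.53, SE; limma adjusted p = 0.178; blocked by replicate, 0.00484). Nefm, a neurofilament subunit, had a Present call on every deletion array and on none of the control arrays. It thus met the detection minimum through the deletion arrays alone, so its direction is no support for a change. Its signals were low, at 45.7, 103 and 72.3 in deletion and 18.1, 29.1 and 17.0 in control (limma adjusted p = 0.12). The median and the counts of the 6 genes include Nefm. The summed signal of the 6 genes ranged from 1043 to 1191 in deletion and from 823 to 1441 in control. Tac1 and Nefm were chosen after their values were seen, and cell bodies of sensory neurons lie outside the pulp.

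The genes whose log2 signals over the 6 arrays were most like Gfra1 were Btbd11, Cacna1d and Ccdc3 (Pearson r = 0.9985, 0.9954 and 0.9949), with log2 differences of 0.83, 1.12 and 1.98. Those most like Sema3a were Efnb2, Gm5817 and Jup (0.9926, 0.9906 and 0.9892), and those most like Ngfr were Cenpn, Abhd10 and Smarcal1 (0.9834, 0.9786 and 0.9759). For Ntrk2 they were Cpsf2, Prkx and Ciapin1 (0.994, 0.9903 and 0.9867) and for Ret Med12l, Helb and Tab2 (0.9949, 0.9802 and 0.9795). They were the 3 highest of 12249 correlations for each member, over 6 arrays that share 2 groups, and values of this size are given as a description. Among the members themselves, Ntrk2 and Ret had a Pearson r of -0.855 and Gfra1 and Sema3a one of 0.719 over the same 6 arrays.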
